A study of Mus musculus with 72 samples.

Results

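The livers compared were those of male C3HeB/FeJ mice (C3H below), an inbred strain, after 21 days on a high-fat diet (HFD) against those of C3H control males. Arrays were chosen by their titles, which gave 8 HFD and 18 control arrays, 26 of the 72 in the series. The other 46 arrays held livers of HFD and control males of 129P2/OlaHsd (129), C57BL/6J (B6J) and C57BL/6NTac (B6N), and served only to ask where the C3H response differed. All mice were wild type, housed singly and random-fed at sampling. HFD mice were 17 weeks old. Controls were 15 to 17 weeks old, so age went partly with diet and its part in the results was not tested. Controls carry the treatment label none, and per the labels' protocols control animals ate a low-fat diet for at most 21 days, so effects are differences from these controls. The expression of 19938 genes was measured on Affymetrix Mouse Gene ST arrays as log2 signal, on which a difference of 1 is a 2-fold change.

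A liver that takes in more fat can burn it, store it or pass it on. Fatty acids and their derivatives activate the nuclear receptor PPARα, which in rodents switches on genes of mitochondrial and peroxisomal β-oxidation, of ω-hydroxylation by the Cyp4a enzymes and of lipid droplets. Hepatocytes also turn cholesterol into bile acids, break down amino acids, and express drug-metabolising enzymes, several of which differ between male and female mice.

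The 26 arrays were first checked for structure that diet did not explain. Mature hepatocyte markers were strongly expressed on every array, with a mean log2 signal over 11 markers of 11.43 to 11.91 in HFD livers and 11.52 to 11.91 in control livers. Log2 signals of the nuclear RNA Malat1 ran from 5.48 to 9.57 without a clear gap. A cut at 8, chosen after seeing the data, made 2 sets of arrays. The low set, at 5.48 to 7.91, held 4 HFD and 8 control arrays. The high set, at 8.45 to 9.57, held 4 HFD and 10 control arrays. In the HFD group the low set was replicates 1 to 4 and the high set replicates 5 to 8, so set and replicate order cannot be told apart there. Both sets held both diets, and effects in the low and high Malat1 sets are given for genes whose log2 fold change in a set was more than 1.5 times above or below that over all arrays, without a test of the difference. The mean log2 signal over 20 pancreatic acinar cell markers had a lowest value, median and highest value of 3.31, 4.03 and 5.97 in HFD livers and 3.37, 3.76 and 6.79 in control livers. None of these 20 markers was called, and all 20 were lower in HFD livers by a median of 0.23 on the log2 scale. Their part in the results was tested as a covariate, which gave 101 calls in place of 93. HFD array 6 stood apart from the rest, with the lowest of the 26 array weights (0.384), the lowest median correlation with its group (0.958), the residual first principal component score farthest from 0 (-44.7) and the highest acinar marker mean of the HFD arrays (5.97). Without it 93 genes were called, 83 of them among the 93 called over all arrays, and the 4 genes Csad, Acot4, Cyp2c38 and Gstm6 lost the call among the 55 named by the rule. The labels do not state a shared litter or day for any mice, so the p-values rest on the spread between these arrays alone, which may be partly technical.

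In HFD livers of C3H mice, genes that rose included Cyp4a14, Vnn1, Cyp4a31 and Cyp4a10, and genes that fell included Etnppl, Cyp7a1, Acmsd and Urad. Of the 19938 genes, 93 (0.466%) passed limma's moderated test at an adjusted p under 0.05 and are referred to as called. Of these, 62 (0.311% of all genes) were higher in HFD livers and 31 (0.155%) were lower. By size, 61 differed at least 1.5-fold (38 higher, 23 lower) and 22 at least 2-fold (17 higher, 5 lower). Without adjustment 1072 genes had a p under 0.05, and the median log2 fold change of all genes was 0.01. Of the called genes, 56 belonged to the 580 genes of the pathway lists and 37 to none of them. The lists were chosen with earlier results of these data known, so their counts are no independent evidence. Each count below stands against the shares of all genes called higher and lower given here. For 9 genes (0.0451% of all) every HFD array lay above every control array: Cyp4a14, Vnn1, Cyp4a31, Cyp4a10, Dio1, Apoa4, Aldh3a2, 9030619P08Rik and Ech1. For 2 genes (0.01%), Etnppl and Urad, every HFD array lay below every control array.

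**Figure D1:**
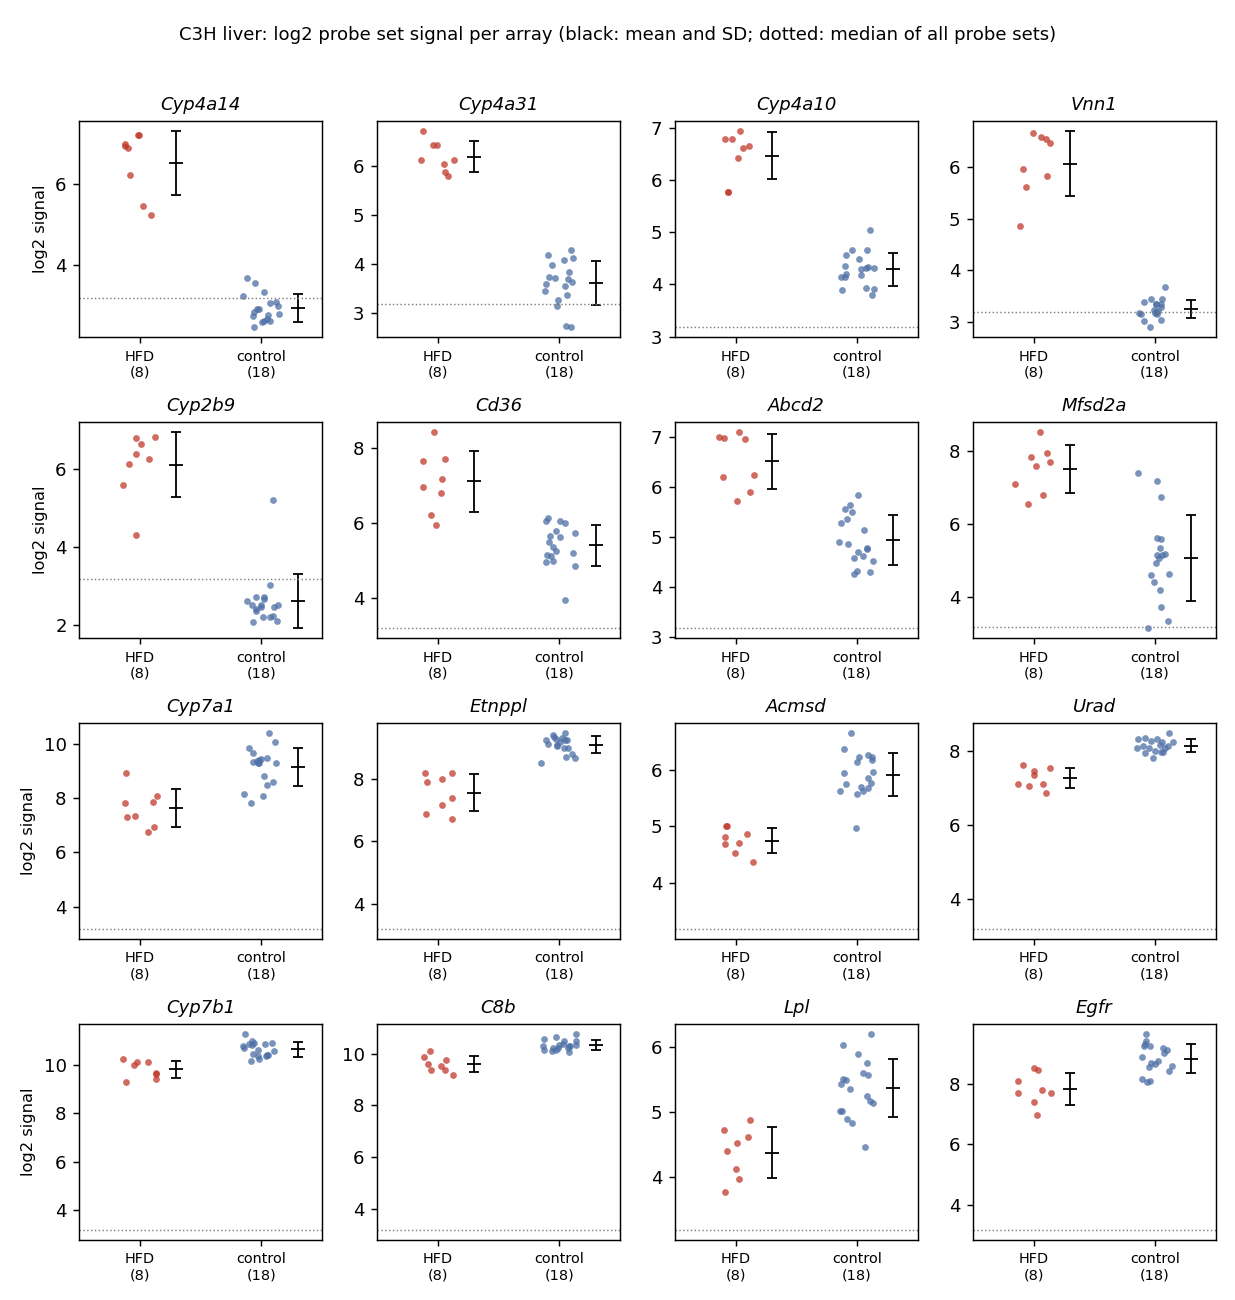
Log2 probe set signal of 16 called genes on each C3H array (vertical axes, log2 units), HFD (8 arrays, red) beside control (18 arrays, blue). Black bars give mean and SD, and the dotted line the median of all probe sets, 3.18. The HFD and control arrays do not overlap for Cyp4a14, Cyp4a31, Cyp4a10, Vnn1, Etnppl and Urad, and 1 control array stands apart for Cyp2b9.

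Among the largest rises were those of 3 of the 5 measured Cyp4a genes, whose enzymes hydroxylate fatty acids at the ω end, and of genes known as PPARα targets. Where 3 log2 signals follow each other for a group, they are its lowest, median and highest array, and log2 fold changes, HFD minus control, carry ± 1 standard error (SE). Cyp4a14 had 5.25, 6.92 and 7.23 in HFD livers and 2.46, 2.88 and 3.68 in control livers. The groups were far apart, and the 2 lowest HFD arrays were replicates 3 and 4. The log2 fold change was 3.59 ± 0.20 (adjusted p = 1.65e-13), which is 12.1-fold with a 95% interval of 9.10 to 16.02. Cyp4a31 had 5.80, 6.13 and 6.72 in HFD livers and 2.70, 3.66 and 4.28 in control livers. Its log2 fold change was 2.58 ± 0.17 (adjusted p = 5.13e-12). Cyp4a10 had 5.77, 6.63 and 6.94 in HFD livers and 3.80, 4.30 and 5.05 in control livers, again without overlap. It rose by 2.18 ± 0.14 on the log2 scale (adjusted p = 1.07e-11). Aldh3a2, the fatty aldehyde dehydrogenase that follows ω-hydroxylation, had 8.93, 9.17 and 9.61 in HFD livers and 7.34, 8.02 and 8.66 in control livers and rose by 1.15 ± 0.14 on the log2 scale (adjusted p = 1.28e-05). These 4 were the called members among 9 measured genes of the ω-hydroxylation list, whose median log2 fold change was 0.02. The other measured Cyp4a genes, Cyp4a12a and Cyp4a12b, were not called and had log2 fold changes of -0.47 (adjusted p = 0.175) and -0.52 (adjusted p = 0.220). Probe sets of close Cyp family members can share signal, and the control mean of Cyp4a14 lay below the median of all probe sets, so the size of its fold is uncertain.

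Of 17 measured PPARα targets outside the oxidation pathways, 7 were called higher and none lower, with a median log2 fold change of 0.58. Vnn1, a pantetheinase that frees the coenzyme A precursor pantothenate, had 4.86, 6.22 and 6.67 in HFD livers and 2.90, 3.22 and 3.67 in control livers. Every HFD array exceeded every control array, and the log2 fold change was 2.82 ± 0.15 (adjusted p = 6.95e-14). The control mean of Vnn1, 3.25, lay just above the median of all probe sets, 3.18, so the size of its fold is uncertain. Vnn3, of the same family, rose by 1.19 ± 0.19 on the log2 scale (adjusted p = 0.000740), with 7 of 8 HFD arrays above all controls. Cd36, a fatty acid uptake receptor, had 5.95, 7.07 and 8.43 in HFD livers and 3.93, 5.42 and 6.14 in control livers. Only 1 HFD array lay within the control range, and the log2 fold change was 1.71 ± 0.25 (adjusted p = 0.000129). Fgf21, a hormone that the liver secretes in fasting and other metabolic stress, had 5.69, 6.15 and 7.20 in HFD livers and 4.57, 5.26 and 5.87 in control livers. It rose by 1.04 ± 0.15 on the log2 scale (adjusted p = 0.000184). Mgll and Plin2 are described with the lipid droplets, and the seventh was Acot2, with a log2 fold change of 0.73 ± 0.16 (adjusted p = 0.0192). The classic targets Cpt1a, Pdk4 and Angptl4 did not pass the test, with log2 fold changes of 0.58 (adjusted p = 0.568), 0.29 (adjusted p = 0.999) and 0.47 (adjusted p = 0.108).

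PPARα binds DNA with its partner RXR at a direct repeat spaced by 1 base (DR1), so the promoter windows of the called genes were searched for AGGTCA, 1 base of any kind and a second AGGTCA. The windows run from 250 bases before to 50 after the transcription start in RefSeq (GRCm38.p6, the C57BL/6J reference, not C3H). Both strands were searched, with at most 2 mismatches over the 12 fixed letters. A match was present in 1190 of 27025 genes with a window (4.4%), in 5 of the 47 genes called higher that had a window and in 2 of the 22 called lower that had one. The other 24 called genes, Cyp4a14 and Vnn1 among them, were not searched. The 5 were Cd36, Plin2, Acot4, Slc25a47 and Slc25a20, and the 2 were Dhrs9 and Akr1c19. The windows of 3 genes are printed, for fatty acid uptake, droplet coating and mitochondrial import, with the match in capitals, 5′ to 3′ on the strand of the gene. That of Cd36 lies at chr5:17835847-17836146 on the minus strand, that of Plin2 at chr4:86670010-86670309 on the minus strand and that of Slc25a20 at chr9:108661886-108662185 on the plus strand. Their matches begin 63 and 225 bases before the start for Cd36 and Plin2, and 7 bases after it for Slc25a20.
Cd36: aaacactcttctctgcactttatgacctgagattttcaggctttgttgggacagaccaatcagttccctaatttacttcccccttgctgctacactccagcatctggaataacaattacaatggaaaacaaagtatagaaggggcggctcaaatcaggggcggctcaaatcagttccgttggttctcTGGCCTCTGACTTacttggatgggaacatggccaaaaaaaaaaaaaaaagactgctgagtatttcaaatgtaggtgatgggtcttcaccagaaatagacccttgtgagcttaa
Plin2: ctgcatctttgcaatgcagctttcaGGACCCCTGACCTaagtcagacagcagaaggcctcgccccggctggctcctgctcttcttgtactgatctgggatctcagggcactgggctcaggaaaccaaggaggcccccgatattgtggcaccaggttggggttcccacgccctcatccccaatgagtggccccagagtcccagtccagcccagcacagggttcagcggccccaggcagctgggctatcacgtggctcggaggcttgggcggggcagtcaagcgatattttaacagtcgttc
Slc25a20: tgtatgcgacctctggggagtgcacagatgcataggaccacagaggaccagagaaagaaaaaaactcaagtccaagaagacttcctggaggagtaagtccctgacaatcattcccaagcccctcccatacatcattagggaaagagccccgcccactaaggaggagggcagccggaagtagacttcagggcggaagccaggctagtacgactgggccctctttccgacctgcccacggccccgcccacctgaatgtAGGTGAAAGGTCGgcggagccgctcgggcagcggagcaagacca
A match describes these letters only, and binding was not measured.

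In mitochondrial β-oxidation and ketone body formation, smaller changes passed the test. Of 25 measured members, 7 were called higher and none lower, all 25 had a positive log2 fold change, and the median was 0.32. Of all genes, 0.311% were called higher and 54.0% had a positive log2 fold change. Crat, which moves acetyl groups between carnitine and coenzyme A, had 6.89, 7.39 and 7.91 in HFD livers and 5.69, 6.68 and 7.36 in control livers. With 5 of 8 HFD arrays above all controls, it rose by 0.83 ± 0.17 on the log2 scale (adjusted p = 0.00900). Slc22a5, which brings carnitine into cells, had 3.99, 4.57 and 5.28 in HFD livers and 3.42, 3.88 and 4.50 in control livers. Its log2 fold change was 0.63 ± 0.14 (adjusted p = 0.0194). That call was lost without HFD array 1, 2 or 8, when the adjusted p was 0.0536 to 0.0811. Eci2 and Decr1, auxiliary enzymes for unsaturated fatty acids, rose by 0.57 ± 0.10 and 0.54 ± 0.11 on the log2 scale (adjusted p = 0.00182 and 0.00680). Bdh1, which interconverts the main ketone bodies, had 8.59, 9.13 and 9.49 in HFD livers and 8.14, 8.56 and 8.87 in control livers. It rose by 0.51 ± 0.10 on the log2 scale (adjusted p = 0.00360), by 0.32 in the low and 0.70 in the high Malat1 set. The last of the 7 were Slc25a20, the mitochondrial carnitine-acylcarnitine carrier described above, at 0.48 ± 0.10 (adjusted p = 0.0177), and Hadh, the short-chain hydroxyacyl-CoA dehydrogenase, at 0.40 ± 0.09 (adjusted p = 0.0230).

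The peroxisomal list, for enzymes and importers that shorten very long fatty acids, held 8 genes called higher and none lower among 28 measured, with a median log2 fold change of 0.19. Abcd2, an importer of very long chain acyl-CoA, had 5.72, 6.59 and 7.09 in HFD livers and 4.26, 4.81 and 5.83 in control livers. Only 1 HFD array lay within the control range. The log2 fold change was 1.57 ± 0.20 (adjusted p = 1.34e-05), at 0.97 in the arrays with low Malat1 and 2.14 in those with high Malat1. Ech1, a dienoyl-CoA isomerase, had 9.87, 10.01 and 10.27 in HFD livers and 9.06, 9.26 and 9.69 in control livers, without overlap. It rose by 0.72 ± 0.09 on the log2 scale (adjusted p = 3.95e-06). Acaa1b, the peroxisomal thiolase, had 9.10, 9.54 and 9.93 in HFD livers and 8.31, 8.75 and 9.41 in control livers and rose by 0.70 ± 0.13 on the log2 scale (adjusted p = 0.00208). The acyl-CoA thioesterases Acot3 and Acot4 rose by 0.67 ± 0.14 and 0.65 ± 0.15 on the log2 scale (adjusted p = 0.0113 and 0.0373). Acot3 lost its call without HFD array 8 (adjusted p = 0.0501), and its effect was 0.40 in the low and 0.92 in the high Malat1 set. Acot4 lost it without any of HFD arrays 1, 4, 6, 7 and 8 or control arrays 1, 5, 9, 10 and 15 (adjusted p = 0.0509 to 0.134), and its effect was 0.26 in the low and 0.99 in the high Malat1 set. Acot8, another thioesterase, rose by 0.40 ± 0.07 on the log2 scale (adjusted p = 0.000844), and Decr2 and Pex11a, which acts in peroxisome division, rose by 0.59 ± 0.09 (adjusted p = 0.000538) and 0.52 ± 0.08 (adjusted p = 0.000502).

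Among 19 measured lipid droplet proteins and lipases, 4 were called higher and none lower, with a median log2 fold change of 0.14. Plin2, which coats droplets in hepatocytes, had 9.57, 10.06 and 10.41 in HFD livers and 8.86, 9.39 and 9.71 in control livers. With 6 of 8 HFD arrays above all controls, it rose by 0.68 ± 0.10 on the log2 scale (adjusted p = 0.000243). Mgll, the lipase that splits monoglycerides, rose by 0.78 ± 0.14 (adjusted p = 0.00208). Fitm1, which acts in droplet formation, had 5.83, 6.32 and 6.98 in HFD livers and 4.80, 5.67 and 5.91 in control livers. It rose by 0.79 ± 0.13 on the log2 scale (adjusted p = 0.000563). G0s2, an inhibitor of the main triglyceride lipase, rose by 0.93 ± 0.20 (adjusted p = 0.0177). Its call was lost without HFD array 2, 4 or 8 (adjusted p = 0.0569 to 0.0674), and its effect was 1.34 in the low and 0.52 in the high Malat1 set.

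Genes that make fat did not pass the test. In fatty acid synthesis 0 of 17 measured genes were called by limma, and 0 had an unadjusted p under 0.05. Fasn, the fatty acid synthase, had 8.33, 9.13 and 10.19 in HFD livers and 6.65, 8.79 and 9.98 in control livers, which overlapped widely. Its log2 fold change was 0.71 ± 0.35 (adjusted p = 0.925), with a 95% interval of -0.01 to 1.42. In triglyceride synthesis 0 of 13 were called, with 2 at an unadjusted p under 0.05. The largest log2 fold change there was that of Gpam, which starts glycerolipid synthesis, at 0.60 ± 0.23 (adjusted p = 0.638). Of 9 genes of polyunsaturated fatty acid desaturation and elongation, 0 were called and 4 had an unadjusted p under 0.05. Fads2, a desaturase, had 10.12, 10.94 and 11.55 in HFD livers and 8.97, 10.32 and 10.74 in control livers, with 7 of 8 HFD arrays above all controls and a log2 fold change of 0.81 ± 0.20 that just missed the threshold (adjusted p = 0.0563). In cholesterol synthesis and uptake 0 of 20 were called, with 2 at an unadjusted p under 0.05 and a median of -0.01. Mvd, an enzyme of the mevalonate pathway, had the largest log2 fold change there, 0.36 ± 0.16 (adjusted p = 0.839).

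Genes of lipoprotein and fatty acid transport moved both ways. Of 29 measured, 4 were called higher (Mfsd2a, Cd36, Apoa4 and Fabp2) and 2 lower (Fabp5 and Lpl), with a median log2 fold change of 0.06. Mfsd2a, a transporter of lysophosphatidylcholine, had 6.56, 7.65 and 8.53 in HFD livers and 3.14, 5.10 and 7.41 in control livers. Control arrays 5, 7 and 13 reached into the HFD range. The log2 fold change was 2.43 ± 0.40 (adjusted p = 0.000890). Apoa4, an apolipoprotein of triglyceride-rich particles, had 10.85, 11.28 and 11.62 in HFD livers and 9.23, 9.98 and 10.81 in control livers, without overlap. It rose by 1.30 ± 0.15 on the log2 scale (adjusted p = 4.39e-06). Fabp2, a fatty acid binding protein best known from the intestine, rose by 1.02 ± 0.19 (adjusted p = 0.00257). Fabp5, another fatty acid binding protein, had 4.18, 4.88 and 5.45 in HFD livers and 4.74, 5.92 and 6.65 in control livers. It changed by -1.04 ± 0.20 on the log2 scale (adjusted p = 0.00643), and its other probe set by -0.98 (adjusted p = 0.00743). Lpl, the lipase that frees fatty acids from circulating triglycerides, had 3.77, 4.46 and 4.88 in HFD livers and 4.46, 5.39 and 6.20 in control livers. In all, 4 of 8 HFD arrays lay below all controls, and the log2 fold change was -0.99 ± 0.17 (adjusted p = 0.00125).

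**Figure D2:**
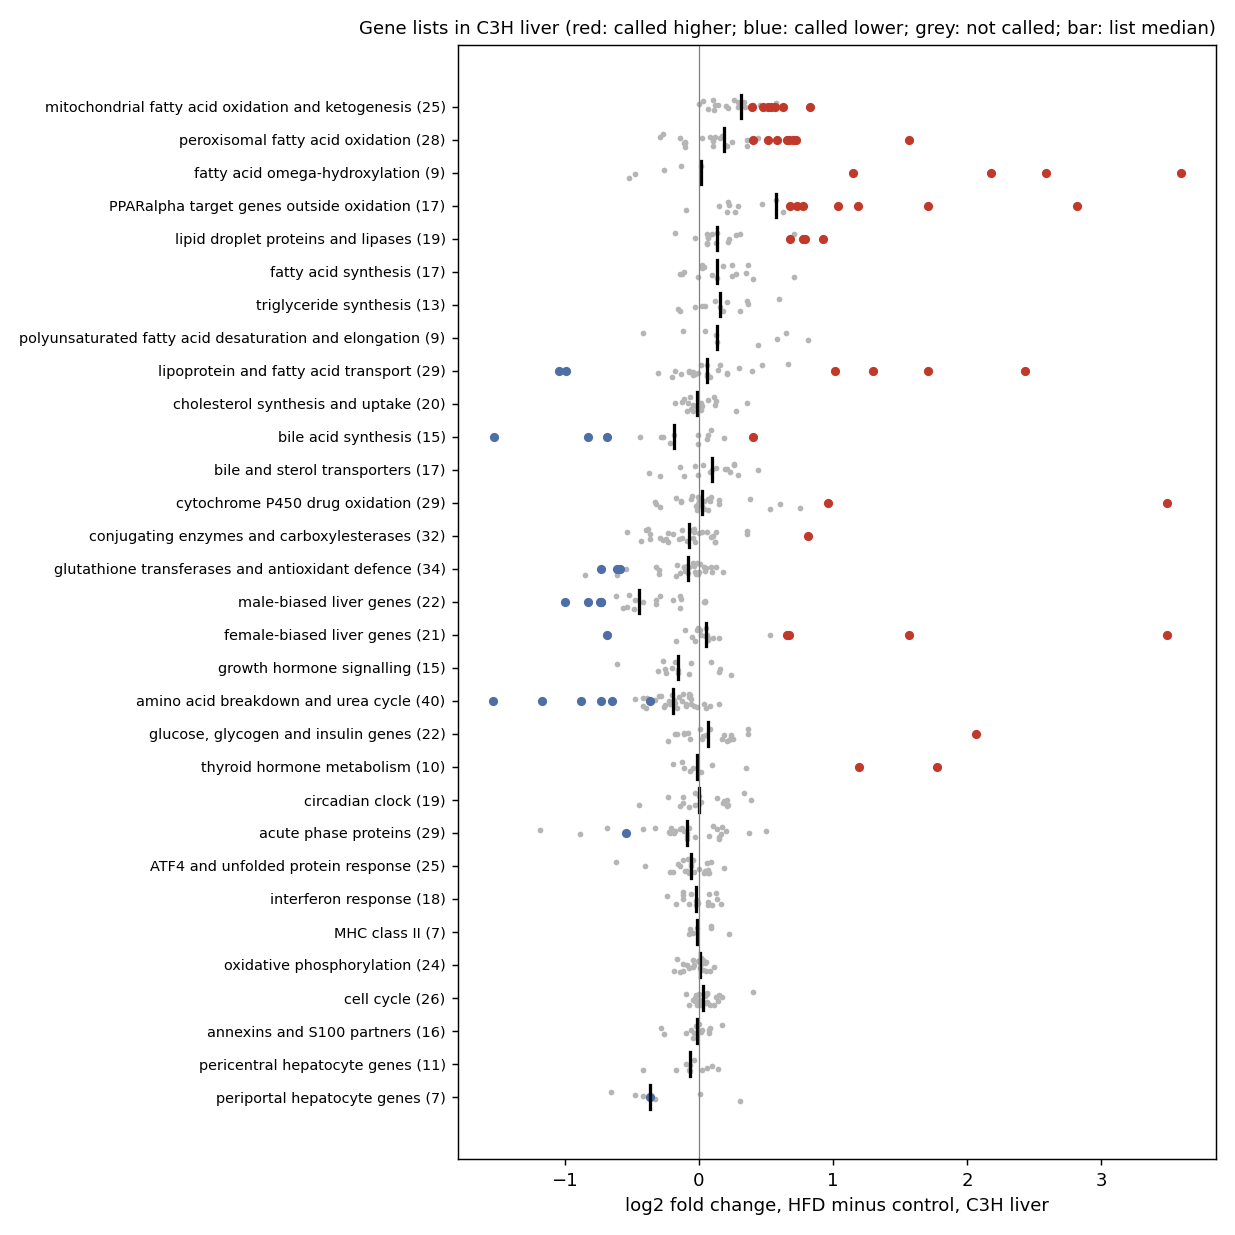
Log2 fold change, HFD minus control, of each measured gene in the pathway lists in C3H liver (horizontal axis), 1 row a list with its number of measured genes in brackets. Red points were called higher, blue points lower and grey points not called, and the black bar is the list's median. The bars lie at 0.32 for mitochondrial fatty acid oxidation, 0.58 for PPARα targets outside oxidation and -0.45 for male-biased liver genes, against 0.01 over all genes.

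Of 15 measured genes of bile acid synthesis, 3 were called lower (Cyp7a1, Cyp7b1 and Cyp2c70) and 1 higher (Acot8, above), with a median log2 fold change of -0.18. Cyp7a1, which starts the classic pathway and limits its rate, had 6.74, 7.58 and 8.94 in HFD livers and 7.80, 9.31 and 10.40 in control livers. The groups overlapped in part, with 4 of 8 HFD arrays below all controls. The log2 fold change was -1.53 ± 0.27 (adjusted p = 0.00199), 2.88-fold lower (95% interval 1.96 to 4.24) in HFD livers. Cyp7b1, which hydroxylates oxysterols in the alternative pathway, had 9.30, 9.83 and 10.25 in HFD livers and 10.15, 10.65 and 11.27 in control livers. With 7 of 8 HFD arrays below all controls, it changed by -0.83 ± 0.13 (adjusted p = 0.000305). Cyp2c70, the mouse enzyme that makes muricholic acids, had 10.53, 10.89 and 11.49 in HFD livers and 11.19, 11.58 and 12.17 in control livers. It changed by -0.69 ± 0.12 (adjusted p = 0.00176). Of 17 bile and sterol transporters 0 were called, with 2 at an unadjusted p under 0.05. Abcc3, a basolateral exporter, had the largest log2 fold change there, 0.44 ± 0.30 (adjusted p = 0.999).

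Amino acid breakdown and the urea cycle held 6 genes called lower and none higher among 40 measured, with a median log2 fold change of -0.19. Etnppl, which breaks down phosphoethanolamine, had 6.71, 7.65 and 8.19 in HFD livers and 8.50, 9.16 and 9.47 in control livers. Every HFD array lay below every control array. The log2 fold change was -1.53 ± 0.16 (adjusted p = 1.87e-07). Acmsd, which turns tryptophan breakdown away from NAD synthesis, had 4.37, 4.76 and 5.01 in HFD livers and 4.98, 5.90 and 6.65 in control livers. Control array 2 alone reached into the HFD range, and the log2 fold change was -1.17 ± 0.14 (adjusted p = 3.95e-06). Csad, of taurine synthesis, and Ddc, which decarboxylates aromatic amino acids, changed by -0.88 ± 0.21 and -0.73 ± 0.16 (adjusted p = 0.0435 and 0.0190). Cth, which makes cysteine, had 10.02, 10.34 and 10.87 in HFD livers and 10.62, 10.998 and 11.43 in control livers and changed by -0.65 ± 0.10 (adjusted p = 0.000538). Arg1, the last enzyme of the urea cycle, changed by -0.36 ± 0.08 (adjusted p = 0.0327). Csad lost its call without any of HFD arrays 2, 3, 4, 6, 7 and 8 or control arrays 4, 5, 6, 7, 9, 10, 11, 15 and 17 (adjusted p = 0.0512 to 0.136). Ddc lost it without HFD array 3 or 4 (adjusted p = 0.0589 to 0.0677), and Arg1 without any of HFD arrays 1, 3, 4 and 8 or control arrays 1, 7, 9, 12 and 13 (adjusted p = 0.0501 to 0.105). Urad, an enzyme of uric acid breakdown outside the list, had 6.87, 7.23 and 7.61 in HFD livers and 7.81, 8.14 and 8.48 in control livers, without overlap, and changed by -0.88 ± 0.09 (adjusted p = 1.24e-07).

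Of the genes known to be more highly expressed in male than in female mouse liver, 5 of 22 measured were called lower and none higher, with a median log2 fold change of -0.45. Egfr, the epidermal growth factor receptor, had 6.98, 7.73 and 8.52 in HFD livers and 8.06, 8.80 and 9.63 in control livers. With 5 of 8 HFD arrays below all controls, it changed by -0.997 ± 0.19 (adjusted p = 0.00444). The terminal complement genes C8b and C6 changed by -0.74 ± 0.10 and -0.73 ± 0.16 (adjusted p = 2.34e-05 and 0.0179). C8b had 9.17, 9.56 and 10.09 in HFD livers and 10.09, 10.30 and 10.76 in control livers, and 7 of 8 HFD arrays lay below all controls. The call of C6 was lost without HFD array 3 or 4 (adjusted p = 0.0578 to 0.0620). Gstp1, a glutathione transferase, had 10.47, 11.39 and 11.72 in HFD livers and 11.42, 12.05 and 12.46 in control livers and changed by -0.73 ± 0.13 (adjusted p = 0.00217). The fifth, Cyp7b1, is given above. Strongly male-biased genes such as Hsd3b5 and Cyp4a12a were not called, at -0.61 (adjusted p = 0.259) and -0.47 (adjusted p = 0.175).

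Of 21 measured female-biased genes, 4 were called higher (Cyp2b9, Abcd2, Acot3 and Acot4) and 1 lower (Lifr), with a median log2 fold change of 0.06. On every array 9 of the 21 lay below the median of all probe sets, where a change could hardly be seen. The list median is therefore no measure of how these genes responded. Cyp2b9, a drug-metabolising P450, had 4.30, 6.32 and 6.81 in HFD livers and 2.08, 2.50 and 5.21 in control livers. Control array 13 was the 1 control above the lowest HFD array, and the other controls reached no higher than 3.03. The log2 fold change was 3.49 ± 0.28 (adjusted p = 1.44e-09) and 3.75 at most when 1 array was left out. Its control mean lay below the median of all probe sets, so the size of the fold is uncertain. Lifr, the leukaemia inhibitory factor receptor, changed by -0.69 ± 0.12 (adjusted p = 0.00217). In growth hormone signalling 0 of 15 genes were called, with 2 at an unadjusted p under 0.05, and Bcl6, a repressor, had the largest log2 fold change, -0.61 ± 0.40 (adjusted p = 0.990).

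Few other detoxification genes were called, though more had an unadjusted p under 0.05 in limma's test. These were 7 of 29 P450 genes, 11 of 32 conjugating enzymes and carboxylesterases and 10 of 34 glutathione transferases and antioxidant genes. Of all 19938 genes, 1072 had such a p. Of 29 measured P450 genes of drug oxidation, Cyp2b9 and Cyp2c38 were called higher and none lower, with a median of 0.02. Cyp2c38 had 4.15, 4.50 and 5.11 in HFD livers and 2.46, 3.51 and 5.08 in control livers, which overlapped widely. It rose by 0.96 ± 0.22 (adjusted p = 0.0335), by 0.44 in the low and 1.45 in the high Malat1 set. Its call was lost without any of HFD arrays 4 to 8 or control arrays 5, 6, 10, 15 and 18 (adjusted p = 0.0507 to 0.110). Of 32 conjugating enzymes and carboxylesterases, only Ugt3a1, a glycosyltransferase, was called, with 7.87, 8.18 and 9.14 in HFD livers and 7.05, 7.40 and 7.94 in control livers. It rose by 0.81 ± 0.12 (adjusted p = 0.000179), against a list median of -0.07. Of 34 glutathione transferases and antioxidant genes, 3 were called lower (Gstp1, Gsta4 and Gstm6) and none higher, with a median of -0.08. The lowest log2 fold change of that list, -0.85, was not called. Gsta4, which clears lipid aldehydes, had 8.32, 8.48 and 8.89 in HFD livers and 8.64, 9.18 and 9.51 in control livers and changed by -0.61 ± 0.08 (adjusted p = 5.43e-05). Gstm6 changed by -0.58 ± 0.13 (adjusted p = 0.0255) and lost its call without HFD array 3, 4, 5 or 6 (adjusted p = 0.0563 to 0.0853).

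Thyroid hormone genes held 2 of the larger rises among 10 measured, with a list median of -0.02. Dio1, the deiodinase that activates thyroxine, had 3.94, 5.07 and 5.78 in HFD livers and 2.71, 3.05 and 3.43 in control livers. The groups did not overlap, and the log2 fold change was 1.78 ± 0.16 (adjusted p = 8.73e-09), with the control mean below the median of all probe sets. Serpina7, which carries thyroxine in blood, had 6.10, 6.91 and 7.88 in HFD livers and 4.61, 5.75 and 6.45 in control livers and rose by 1.19 ± 0.20 (adjusted p = 0.00117). In the list of glucose, glycogen and insulin genes 1 of 22 was called, with a median of 0.07. That gene was Rgs16, a regulator of G protein signalling, with 6.22, 7.59 and 8.49 in HFD livers and 3.73, 5.05 and 7.67 in control livers. Control arrays 4, 7, 13 and 18 lay within the HFD range, and the log2 fold change was 2.07 ± 0.43 (adjusted p = 0.0144), at 1.20 in the low and 2.88 in the high Malat1 set.

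Among the largest changes outside these groups, 9030619P08Rik, a gene with no known role, had 4.36, 4.80 and 5.86 in HFD livers and 3.33, 3.80 and 4.24 in control livers and rose by 1.08 ± 0.14 (adjusted p = 1.34e-05). Obp2a, a lipocalin, had 4.17, 4.68 and 4.95 in HFD livers and 4.37, 5.68 and 6.80 in control livers. It changed by -1.04 ± 0.20 (adjusted p = 0.00395). Akr1c19, an aldo-keto reductase, had 5.30, 5.94 and 6.37 in HFD livers and 6.08, 6.75 and 7.22 in control livers and changed by -0.85 ± 0.15 (adjusted p = 0.00125).

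Within the lists for inflammation, stress and other cell types, almost no gene was called. Outside them, 3 genes known from immune cells, chosen after their values were seen, were called higher: Stap1, an adaptor protein, at 0.80 ± 0.13 (adjusted p = 0.000831), Ly86, the partner of a Toll-like receptor relative, at 0.65 ± 0.15 (adjusted p = 0.0327), and Tlr12, a Toll-like receptor, at 0.53 ± 0.09 (adjusted p = 0.00098). Ly86 had 4.18, 4.60 and 5.77 in HFD livers and 3.41, 4.09 and 4.66 in control livers. Its highest value, and that of Stap1 (5.06), came from HFD array 6, which stood apart from the rest. How these 3 calls fared with single arrays left out was not examined. Of 29 acute phase proteins, only Orm1 was called, at -0.54 ± 0.11 (adjusted p = 0.0127), a call lost without HFD array 4 (adjusted p = 0.0530), and the list median was -0.09. In limma's test 8 of the 29 had an unadjusted p under 0.05, against 1072 of all 19938 genes. The lowest log2 fold change of that list, -1.18, was not called. Of 25 ATF4 and unfolded protein response genes 0 were called and 2 had an unadjusted p under 0.05. Asns, the asparagine synthetase, came nearest, at -0.62 ± 0.16 (adjusted p = 0.0890). No gene was called by limma in the lists of interferon response (18 genes, 0 at an unadjusted p under 0.05), MHC class II (7 genes, 0), oxidative phosphorylation (24 genes, 0), cell cycle (26 genes, 1), annexins (16 genes, 2), circadian clock (19 genes, 2) and pericentral hepatocytes (11 genes, 1). In these lists, the values farthest from 0 were log2 fold changes of Oasl1 -0.24, H2-Ea 0.22, Cox6c -0.18, Ccnd1 0.40, Anxa6 -0.28, Clock -0.44 and Oat -0.42. The lowest adjusted p among them was 0.140. Of the 26 cell cycle genes, 9 lay below the median of all probe sets on every array, where a change could hardly be seen. Among 7 periportal genes Arg1 was called lower, and the list median was -0.36. An unadjusted p under 0.05 was seen for 5 of these 7.

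None of the 121 marker genes of the 11 cell type lists was called. In whole liver, fewer cells of a type and less RNA per cell cannot be told apart. The mean log2 signal of the 21 macrophage markers was 4.41 to 4.87 in HFD livers and 4.46 to 4.94 in control livers. Neutrophil markers averaged 2.59 to 2.85 in HFD livers and 2.55 to 2.88 in control livers, and lymphocyte markers 2.79 to 2.98 in HFD livers and 2.69 to 2.98 in control livers. These averages lay below the median of all probe sets, 3.18. On every array 4 of 8 neutrophil and 6 of 13 lymphocyte markers lay below it, so a change in these cells could hardly be seen. The 18 stellate and matrix markers averaged 4.83 to 5.11 in HFD livers and 4.85 to 5.07 in control livers, and the 13 endothelial markers 4.92 to 5.69 in HFD livers and 5.01 to 5.65 in control livers. In each of these lists the ranges of the groups overlapped. In each list, the log2 fold change farthest from 0 lay between -0.57 for Ctrb1 of the acinar list and 0.27 for Retnlg of the neutrophil list, with Mpeg1 at -0.30, Ptprc at 0.21, Dcn at -0.16, Dnase1l3 at -0.23, Cftr at 0.11, Alas2 at -0.12, Lep at -0.15, Acta1 at -0.31 and Hnf4a at -0.26.

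Calls were set against the Malat1 sets, the choice of controls and the scaling. The 55 called genes named by the rule had the same sign in both Malat1 sets. In all of 10 alternative settings that used all 26 arrays without a replicate block, 46 of the 55 stayed called. Of the other 9, Csad, Ddc, Acot3, Acot4, Cyp2c38, Gstm6, Arg1 and Rgs16 lost the call with array weights (Arg1 also with a trend and robust fit), and Csad, Acot4, Cyp2c38, Gstm6 and Slc22a5 with median centring. Acot3 and Acot4 also lost it in a fit of all 72 arrays. In all 15 settings, subsets of arrays and the replicate block included, 15 genes stayed called: Cyp4a14, Cyp2b9, Vnn1, Cyp4a31, Cyp4a10, Dio1, Cd36, Abcd2, Apoa4, 9030619P08Rik, Ech1, Etnppl, Acmsd, Urad and C8b. Some of the larger changes did not. Cyp7a1 lost the call with only controls 9 to 18 and in both Malat1 sets (adjusted p up to 0.1015). Mfsd2a lost it with the replicate block and in the high Malat1 set (up to 0.230). Lpl and Egfr lost it in these 2 settings and with only controls 1 to 8 (up to 0.166 and 0.351). With each array left out in turn, 44 of the 55 stayed called in all 26 fits, and the other 11 are named above with the arrays.

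**Figure D3:**
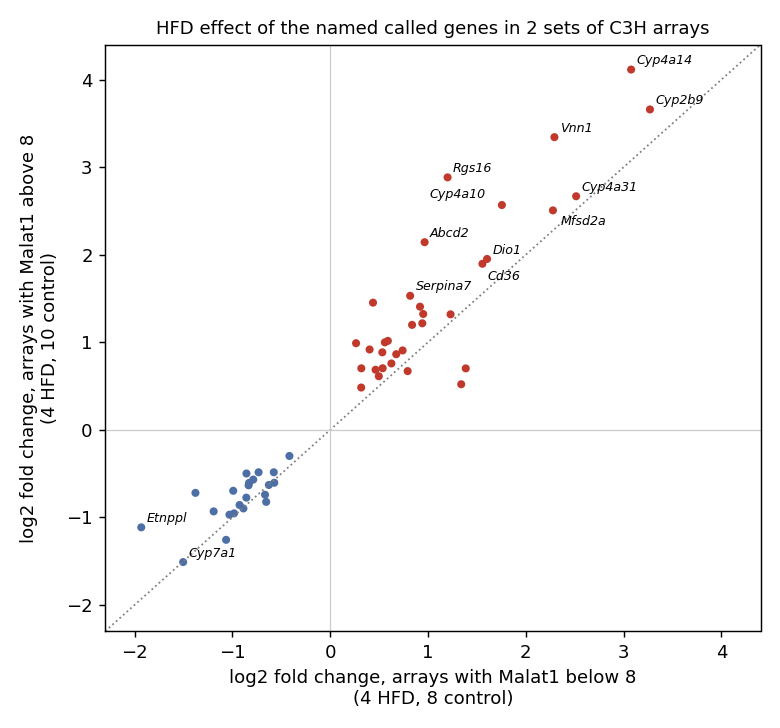
Log2 fold change, HFD minus control, of the 55 named called genes within the arrays with Malat1 below a log2 signal of 8 (horizontal axis, 4 HFD and 8 control arrays) and within those above 8 (vertical axis, 4 HFD and 10 control arrays). Red genes were called higher and blue genes lower over all arrays. All points lie on the same side of 0 on both axes, which was likely in advance because the genes were called on these arrays. Rgs16 is at 1.20 and 2.88.

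The last question was where the C3H response differed from that of the other strains. The C3H, 129 and B6 arrays stood at different overall levels, so signals were not compared between strains and folds of the sets may be compressed unequally. Of the 93 genes, 83 had the same sign in all 4 strains. The share of all genes that did was not counted, so no excess can be read from this. Of the 62 called higher in C3H, 15 were also called higher in 129 (0.441% of all genes were), 17 in B6J (0.13%) and 43 in B6N (0.637%), in a fit of all 72 arrays. Of the 31 called lower in C3H, 7 were called lower in 129 (0.135% of all genes), 10 in B6J (0.166%) and 19 in B6N (0.276%). None was called the opposite way in another strain. Each strain had its own controls.

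The C3H effect minus the mean effect of the other 3 strains passed the test for 13 genes (0.0652% of all), 11 higher and 2 lower in C3H. Of the 93 genes called in C3H, 6 were among them. Cyp2b9 differed by 2.45 ± 0.42 (adjusted p = 0.000968), with effects of 3.49 in C3H, 0.07 in 129, 0.04 in B6J and 3.02 in B6N. The rise was also called in B6N. Cyp4a31 differed by 1.60 ± 0.29 (adjusted p = 0.00275), with effects of 2.58 in C3H, 1.18 in 129, 0.43 in B6J and 1.35 in B6N. Cyp4a10 differed by 1.37 ± 0.26 (adjusted p = 0.00332), with effects of 2.18 in C3H, 0.73 in 129, 0.51 in B6J and 1.19 in B6N. Both genes had the same sign in all strains and the largest effect in C3H. The call was lost with the replicate block for Cyp4a31 (adjusted p = 0.0619) and with array weights for Cyp4a10 (adjusted p = 0.171). Cd36 differed by 1.24 ± 0.28 (adjusted p = 0.0385), with effects of 1.71 in C3H, 0.28 in 129, 0.34 in B6J and 0.78 in B6N, and lost this call in 6 of 7 alternative settings (adjusted p up to 0.492, and 0.246 without HFD array 6). Vnn3 differed by 0.89 ± 0.18 (adjusted p = 0.0110), with effects of 1.19 in C3H, 0.17 in 129, 0.19 in B6J and 0.53 in B6N, a call lost with median centring (adjusted p = 0.0709). Lpl differed by -0.99 ± 0.17 (adjusted p = 0.000968), with effects of -0.99 in C3H, 0.25 in 129, -0.12 in B6J and -0.13 in B6N, so that a fall was called in C3H alone while the other effects lay near 0. For Cyp4a14 and Vnn1 the difference did not pass, at 1.84 ± 0.49 and 1.05 ± 0.26 (adjusted p = 0.267 and 0.142).

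The other 7 genes were not called in C3H and were chosen after their values were seen. Cyp3a44 and Cyp3a11, P450 enzymes of drug oxidation, fell in the other strains and did not pass the test in C3H. Cyp3a44 had 5.33, 5.68 and 6.17 in HFD livers and 4.18, 5.29 and 5.70 in control livers of C3H, a log2 fold change of 0.53 ± 0.15 (adjusted p = 0.204), against -1.26 in 129, -1.20 in B6J and -1.48 in B6N. Its difference was 1.84 ± 0.17 (adjusted p = 4.23e-12). Cyp3a11 had 9.22, 9.60 and 10.43 in HFD livers and 8.05, 9.06 and 9.94 in control livers of C3H, a log2 fold change of 0.61 ± 0.20 (adjusted p = 0.400), against -1.06 in 129, -0.79 in B6J and -1.08 in B6N. Its difference was 1.58 ± 0.19 (adjusted p = 3.34e-08). In both genes the C3H effect had the opposite sign to the other 3. Cyp17a1, a steroid P450, had an effect of -0.03 in C3H against 0.30 in 129, 1.40 in B6J and 1.40 in B6N, a difference of -1.07 ± 0.21 (adjusted p = 0.00621) that lost the call in 2 of 7 settings, array weights and the replicate block (adjusted p = 0.183 to 0.468). Cyp2c55, the organic anion transporter gene Slco1a4, the carboxylesterase gene Ces2a and Gas7 differed by 1.09 ± 0.21, 0.98 ± 0.21, 0.59 ± 0.11 and 0.58 ± 0.11 (adjusted p = 0.00486, 0.0304, 0.00484 and 0.00332). Slco1a4 lost this call in 4 of 7 settings, with array weights, median centring, the replicate block and without HFD array 6 (adjusted p = 0.0724 to 0.428), and Cyp2c55 in 1 of 6, with array weights (adjusted p = 0.162). Cyp2b9, Lpl, Cyp3a44, Cyp3a11, Ces2a and Gas7 kept it in every setting run for them.

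**Figure D4:**
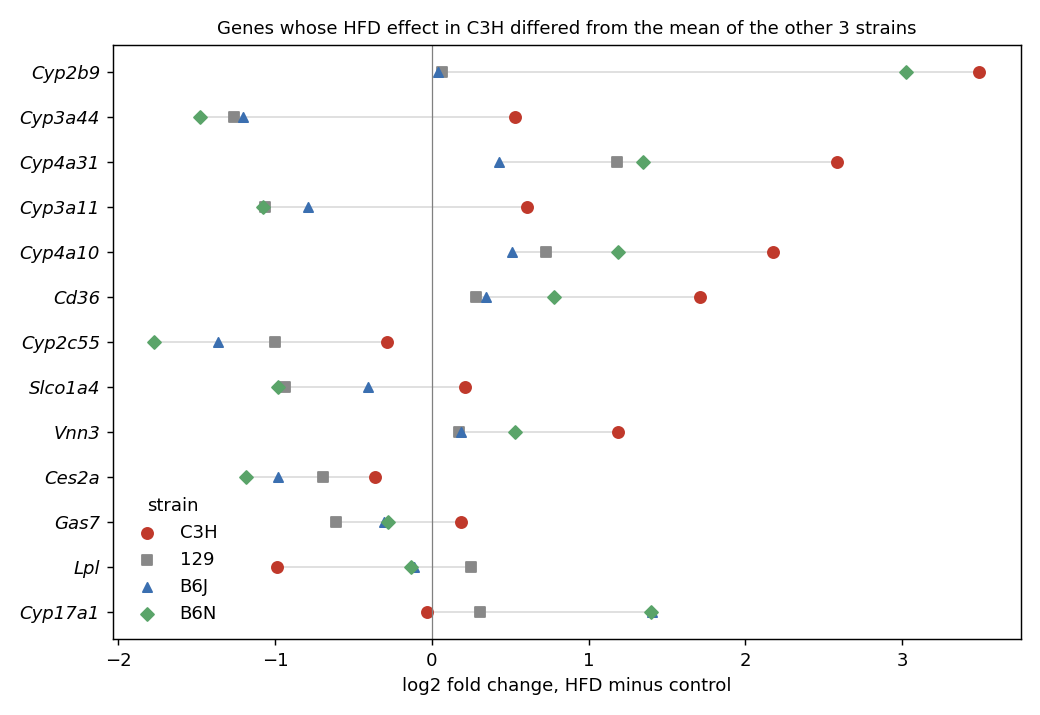
Log2 fold change, HFD minus control, of the 13 genes whose C3H effect differed from the mean of the other 3 strains (horizontal axis), with C3H as red circles, 129 as grey squares, B6J as blue triangles and B6N as green diamonds. Cyp3a44 and Cyp3a11 lie right of 0 in C3H, at 0.53 and 0.61, and left of 0 in the other 3 strains.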

How the data were processed

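Livers were profiled on Affymetrix Mouse Gene ST arrays after isolation of total RNA with a column kit and DNase, per the labels' protocols. The deposited values are log2 signals of 35556 probe sets on 72 arrays, which per the submitters' processing notes the authors obtained by RMA (background correction, quantile normalisation and probe summary) with Affymetrix Expression Console 1.1. The genome build, and whether all arrays were normalised in 1 run, are not given in the sources used here. Array medians differed by strain, so levels were compared within C3H only. Detection calls were not used here, arrays have no read depth, and precision is limited by how many arrays a group has.

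Of the probe sets, 21789 carried 1 gene symbol in the platform annotation, 1621 several and 12146 none, and 21698 of the first were matched by identifier. For each of 19938 genes the probe set brightest on average over the 26 C3H arrays was used, without a filter on dim genes. Groups came from the titles. Each gene was fitted with limma 3.58.1 (R 4.3.3) on the 26 arrays (24 residual degrees of freedom), with a two-sided moderated test and Benjamini-Hochberg adjustment over all genes, and called at an adjusted p under 0.05. All adjusted p-values come from limma. The strain difference was a contrast in a fit of all 72 arrays with 8 group means. Named genes were the 15 largest rises and falls among called genes whose higher group lay above the array median, up to 5 called members of each of 31 pathway and 11 cell type lists (or the largest change where none was called), and called genes that differed from the other strains. Of 829 list entries 746 were measured. The members and lists were chosen with earlier results of these data known, and are no independent evidence.

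The fit was tested on simulated data for the same 26 arrays and 19938 genes: it recovered 85% of 100 changes of 1.5-fold and 100% of 100 changes of 2-fold, and 6.57% of its calls were false. The simulated noise was independent between genes and arrays. In the real data the first and second residual principal components held 27.0% and 16.7% of the variance, so these rates may not hold there. No arrays were identical, and arrays of the same group correlated at 0.9933 at most. Alternatives were other scaling, filters, a fit over every probe set, weights, moderation, covariates, a replicate block, subsets of controls and leaving out each array.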

Additional observations from a re-analysis of the deposited data

Results flagged for a closer look

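The HFD effect in C3H differed from the mean effect of the other 3 strains, in a test of the difference itself, for 13 genes. Cyp2b9 (2.45), Cyp4a31 (1.60), Cyp4a10 (1.37), Cd36 (1.24) and Vnn3 (0.89) rose more in C3H than this mean on the log2 scale, and Lpl (-0.99) fell in C3H. The rise of Cyp2b9 was not particular to C3H. It was 3.49 in C3H and 3.02 in B6N, called in both, against 0.07 in 129 and 0.04 in B6J. Cyp3a44 (1.84), Cyp3a11 (1.58), Cyp2c55 (1.09), Slco1a4 (0.98), Ces2a (0.59), Gas7 (0.58) and Cyp17a1 (-1.07) differed without a call in C3H. The difference no longer passed for Slco1a4 and Cd36 without HFD replicate 6 (adjusted p = 0.161 and 0.246).

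One HFD sample stood apart from the others of its group for Anxa6, a membrane-binding annexin. HFD replicate 6 had a log2 signal of 6.43, against 7.02 to 7.53 in the other HFD livers. The same array had the lowest weight of the 26 (0.384) and the lowest median correlation with its group (0.958). Anxa6 was 1 of 87 genes tested in this way, and chance marks about 1 in 20.

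Probe sets without a single gene symbol were left out of the report. Of these 13767 probe sets, 15 passed limma's test at an adjusted p under 0.05 between HFD and control livers of C3H, 5 higher and 10 lower. They are not named here.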

How the results depend on the processing

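The main comparison gave 93 calls, 56 of them in pathway lists, and 66.7% of the 93 were higher in HFD livers. No result changed direction while called. A fit of all 72 arrays gave 170 calls (87 in lists, 88 of the 93 shared). Only the first 8 controls gave 48 (34), and only controls 9 to 18 gave 72, with 56.9% higher. Malat1 and its split were chosen after seeing the data: with Malat1 as a covariate there were 141 calls, and as a block 132. The arrays with Malat1 under 8 gave 81 calls (37 in lists), 34.6% higher, and those over 8 gave 70 (37), 87.1% higher. Quantile normalisation gave 115 calls, median centring 74, bright genes 101, array weights 96, a trend and robust fit 94 and the acinar covariate 101. A fit over all 21789 probe sets with 1 symbol gave 93 when counted on the same probe set per gene. That setting keeps the fold changes of the main fit, so it is a weak check. Over all those probe sets, 62 were called higher and 34 lower. Leaving out each array gave 75 to 105 calls, and 47 to 62 in lists. Replicate numbers did not pair the samples: the deviations of same-numbered HFD and control arrays correlated at -0.27 to 0.19, over 0.1 in 1 of 8 pairs, and no sample correlated best with its own number. With the replicate number as a block, 24 genes were called (18 in lists). That fit used only controls 1 to 8 beside the HFD arrays, which without a block gave 48 calls. Of the 55 named called genes, 15 stayed called in all 15 settings. For the strain difference, 13 calls became 8 with array weights, 10 to 16 in the other 5 settings (16 with the replicate block) and 11 without HFD replicate 6, an alternative chosen after seeing the data. Fads2, not called at an adjusted p of 0.056, was called in 7 settings. Signal near background limits the fold sizes of 6 called genes with a group mean below the median of all probe sets, 3.18: Cyp2b9, Cyp4a14, Dhrs9, Dio1, Slc13a2 and Slc6a16. The limit may also hold for genes with a control mean just above it, such as Gm9895 (3.21), Vnn1 (3.25), Acot3 (3.25), Tlr12 (3.34) and Stap1 (3.41). The cause of the shifts between settings was not tested.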

Other observations

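Of the 93 called genes, 38 were not named by the rule, and the following were chosen after their values were seen. Slc25a47, a mitochondrial carrier of the liver, had a lowest, median and highest log2 signal of 9.44, 9.84 and 10.01 in HFD livers and 8.67, 9.22 and 9.55 in control livers, a log2 fold change of 0.65 ± 0.11 (limma adjusted p = 0.00128). Pctp, the phosphatidylcholine transfer protein, had 7.18, 7.62 and 8.24 in HFD livers and 5.57, 6.71 and 7.31 in control livers, a change of 0.93 ± 0.16. Slc10a2, a sodium-dependent bile acid transporter best known from the ileum, had 6.02, 6.78 and 7.54 in HFD livers and 4.97, 6.07 and 6.76 in control livers, a change of 0.76 ± 0.18 that only just passed (limma adjusted p = 0.0449). Ldha, lactate dehydrogenase, rose by 0.38 ± 0.07.

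Among the genes lower in HFD livers, Ugdh, which makes the sugar acid donor of glucuronidation, had 8.38, 8.98 and 9.54 in HFD livers and 9.32, 9.61 and 10.08 in control livers, a change of -0.69 ± 0.12. Cyp2c68, another P450, had 6.44, 6.99 and 7.73 in HFD livers and 7.21, 7.71 and 8.60 in control livers, a change of -0.72 ± 0.16. Ethe1, which oxidises sulfide in mitochondria, changed by -0.49 ± 0.11.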
